A study of Mus musculus with 6 samples.

Results

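The genes described here are 10 enzymes that make triglyceride and the glycerol backbone it is built on: Pck1, Gpd1, Gk, Gpam, Gpat3, Gpat4, Agpat2, Lpin1, Dgat1 and Dgat2. They were taken by gene symbol from the 23492 genes with reads, and all 10 had reads. The tissue was epididymal white adipose tissue, the visceral fat pad beside the epididymis. Poly-A RNA was copied into cDNA, sequenced on a nanopore device without PCR amplification and counted as reads per annotated transcript. The cold group was 3 mice (numbers 7, 12 and 16) kept alone at 4 °C for 24 h, and the ctrl group was 3 mice (5, 6 and 10). All were wild-type C57BL/6N males of 20 weeks with free access to food, and base housing was at 22 to 24 °C. The labels do not say whether ctrl mice were housed alone, so cold and housing cannot be told apart. Each library came from 1 mouse.

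White adipocytes store fatty acids by attaching them to glycerol 3-phosphate. In fat that backbone comes mainly from glucose, or from pyruvate and its relatives through Pck1, a route called glyceroneogenesis. Gpd1 makes the glycerol 3-phosphate in both routes. Acyltransferases add the first acyl chain (Gpam, Gpat3, Gpat4) and the next (Agpat2), lipin-1 (Lpin1) removes the phosphate, and the DGAT enzymes (Dgat1, Dgat2) add the last chain. Lipolysis runs strongly in cold-exposed fat, and part of the fatty acids set free is normally put back into triglyceride by these same steps.

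None of the 10 genes passed the test between cold and ctrl mice. By edgeR's quasi-likelihood test with Benjamini-Hochberg adjustment over the 9772 genes tested, adjusted p lay between 0.179 (Gk) and 0.957 (Dgat2), and 0 of 10 were under 0.05, against a background of 0.655% of all genes tested. DESeq2 and limma-voom also called 0. At an unadjusted p under 0.05 there were 3 members, against 8.43% of all genes tested. Of these Gk and Gpd1 were higher in cold mice (background 4.72%) and Pck1 was lower (background 3.71%). The median log2 fold change of the 10 was 0.17, with 6 above 0 and 4 below, and that of all genes tested was 0.01. For 9 members the 95% interval of the fold change lay within a 2-fold change in either direction, from 0.623 to 1.78, as it did for 81.6% of all genes tested. The exception was Gk. In 3 members (Gk, Gpat4 and Lpin1) every cold mouse was above every ctrl mouse, which held for 5.96% of all genes tested. In 0 members were all cold mice below all ctrl mice, which held for 7.7% of all genes tested. In bulk tissue, fewer cells of a type and less RNA per cell cannot be told apart.

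**Figure D1:**
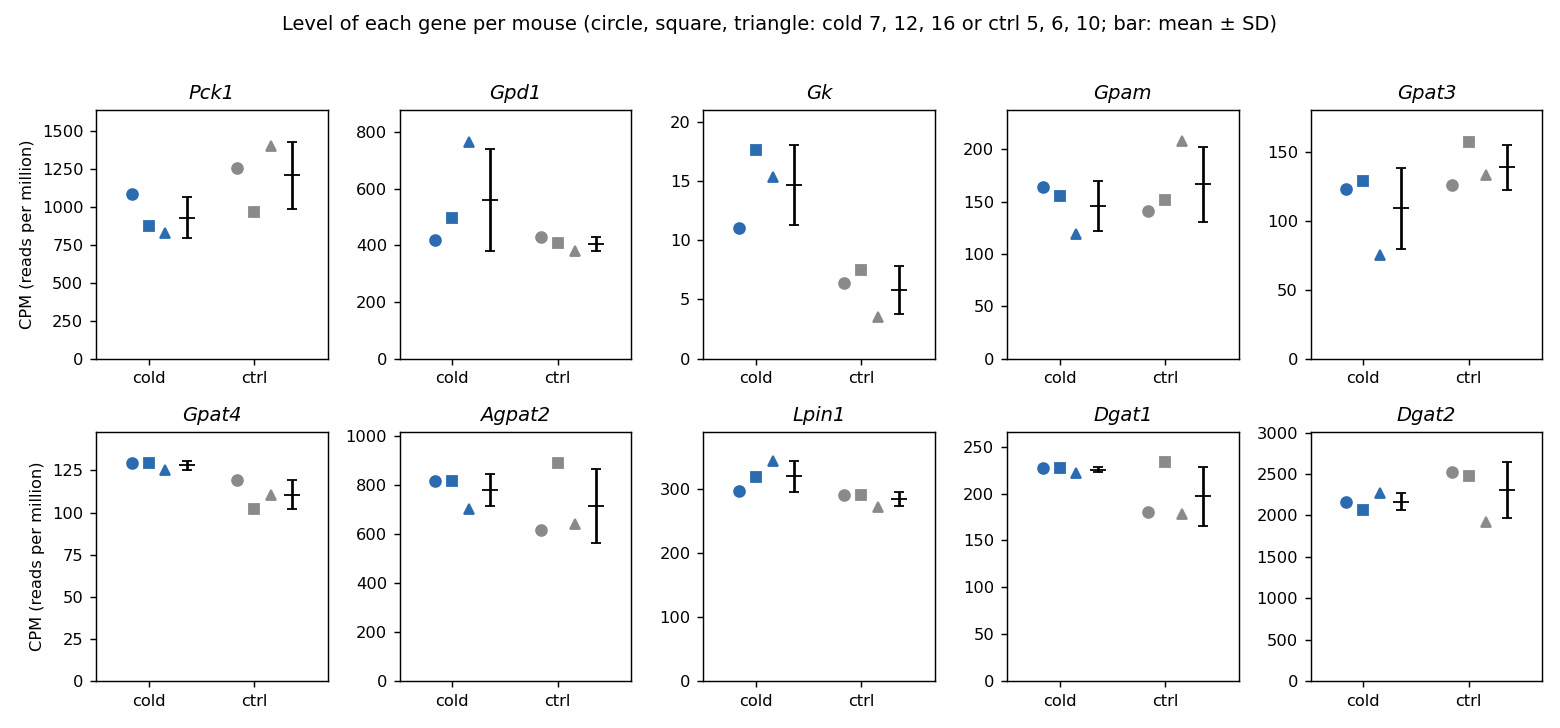
Level of each of the 10 genes in CPM, reads scaled by the library's total on genes (vertical axis from 0), with 1 point per mouse and the mean ± SD (n = 3) beside each group, cold on the left and ctrl on the right. The groups overlap in 7 genes, and the cold mice lie above the ctrl mice in Gk, Gpat4 and Lpin1.

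Depth was between 726283 and 1194134 reads in cold mice and between 939107 and 1341592 reads in ctrl mice, so 1 read is worth 0.747 to 1.38 CPM. The 10 genes held 33340 reads in all, 0.523% to 0.547% of the gene reads in cold mice and 0.524% to 0.569% in ctrl mice. The tissue label was borne out by 8 adipocyte markers (Adipoq, Plin1, Cidec, Fabp4, Cfd, Lep, Retn and Lipe), which summed to 47289 to 50857 CPM in cold mice and 46820 to 51667 CPM in ctrl mice. In edgeR's model 0 of 8 passed the threshold and 3 had an unadjusted p under 0.05, against 8.43% of all genes tested. Of these, Fabp4 (mean 22818 CPM in cold mice, 18345 in ctrl mice) and Lep (685 and 437) were higher in cold mice. Cfd was lower (10879 and 15536). The even sum therefore covers moves in opposite directions. All 6 brown and beige adipocyte markers had reads, and their sum was 41.4 to 76.6 CPM in cold mice and 27.4 to 53.0 CPM in ctrl mice. The defining gene Ucp1 had 1 read in cold mice and 1 in ctrl mice, and Ppargc1a had 17 reads in cold mice and 10 in ctrl mice. The 1 marker with enough reads to test was Cox8b, with 120 reads in cold mice and 101 in ctrl mice (log2 fold change 0.64, 95% interval 0.02 to 1.25), which passed at an unadjusted p under 0.05 but not after adjustment (edgeR adjusted p 0.573). The library of cold mouse 16 stood apart in transcript classes: 4.37% of its reads were on transcripts annotated as retaining an intron, against 3.25% to 3.63% in the other 5 libraries, and 7.46% were on mitochondrially encoded mRNAs, against 5.50% to 6.50%.

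The order of the members depended on the scale, and it was the same in both groups only after division by transcript length. A nanopore read can span a whole cDNA, so read counts need not grow with length. CPM without that division is the more direct scale here. Division by length raises genes with short transcripts, such as Agpat2 (1439 bases), against those with longer ones, such as Pck1 (2675 bases). In mean CPM per kb of transcript, Dgat2 came first with 961 in cold mice and 1024 in ctrl mice, and Gk was last with 3.48 in cold mice and 1.38 in ctrl mice. After Dgat2 the levels in cold mice were 541 for Agpat2, 347 for Pck1, 196 for Gpd1, 128 for Dgat1, 60.1 for Lpin1, 36.5 for Gpat3, 24.3 for Gpam and 23.4 for Gpat4. In ctrl mice they were 498 for Agpat2, 451 for Pck1, 142 for Gpd1, 112 for Dgat1, 53.5 for Lpin1, 46.3 for Gpat3, 27.7 for Gpam and 20.2 for Gpat4. Neighbours whose ranges over mice overlapped were Gpat3 with Gpam and Gpam with Gpat4 in cold mice, and Agpat2 with Pck1 and Lpin1 with Gpat3 in ctrl mice. Without division by length the order was different. In mean CPM Pck1 stood above Agpat2 (928 against 779 in cold mice, 1206 against 716 in ctrl mice), and Lpin1 above Dgat1. That order was not the same in both groups. Gpat4 stood above Gpat3 in cold mice (128 against 109, ranges overlapping) and below it in ctrl mice (111 against 139). On both scales Dgat2, which makes triglyceride, came first and Gk, which recycles free glycerol, came last.

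Pck1 encodes cytosolic phosphoenolpyruvate carboxykinase, which turns oxaloacetate into phosphoenolpyruvate and controls glyceroneogenesis in fat. Its level was 1081, 873 and 829 CPM in cold mice 7, 12 and 16, against 1251, 965 and 1401 CPM in ctrl mice 5, 6 and 10. The lowest ctrl mouse lay between the cold mice, so the groups overlapped, although the 2 highest values were both from ctrl mice. Means were 928 ± 135 CPM in cold mice and 1206 ± 222 CPM in ctrl mice (SD, n = 3 each). The log2 fold change was -0.35 (SE 0.15, 95% interval -0.67 to -0.04), with an unadjusted p of 0.031 and an adjusted p of 0.534 in edgeR's model over all genes. Leaving out each mouse in turn kept it between -0.50 and -0.22.

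Gpd1 encodes the cytosolic glycerol 3-phosphate dehydrogenase, which makes glycerol 3-phosphate from the glycolytic intermediate dihydroxyacetone phosphate. Cold mice 7, 12 and 16 had 419, 497 and 764 CPM, against 429, 410 and 379 CPM in ctrl mice 5, 6 and 10. The ctrl values were close together, cold mouse 7 lay among them, and cold mouse 16 was far above every other mouse. Means were 560 ± 181 CPM in cold mice and 406 ± 24.8 CPM in ctrl mice (SD, n = 3 each). The log2 fold change was 0.49 (SE 0.17, 95% interval 0.14 to 0.84), with an unadjusted p of 0.0084 and an adjusted p of 0.335 in edgeR's model. Without cold mouse 7 the log2 fold change was 0.64 and passed the threshold (edgeR adjusted p 0.0324), and without cold mouse 16 it was 0.21 (edgeR adjusted p 0.713). Nearly all of the gene's reads were on 1 transcript, Gpd1-201, with 303, 585 and 596 reads in cold mice and 401, 546 and 428 reads in ctrl mice. Its log2 fold change was 0.49 as well (edgeR adjusted p 0.516 over the transcripts tested), and 0.20 without cold mouse 16.

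Gk encodes glycerol kinase, which phosphorylates free glycerol and is known for its low activity in white adipocytes. It had 11.0, 17.6 and 15.3 CPM in cold mice 7, 12 and 16 (8, 21 and 12 reads), against 6.40, 7.47 and 3.53 CPM in ctrl mice 5, 6 and 10 (6, 10 and 4 reads). All 3 cold mice were above all 3 ctrl mice. Means were 14.7 ± 3.34 CPM in cold mice and 5.80 ± 2.04 CPM in ctrl mice (SD, n = 3 each). The log2 fold change was 1.37 (SE 0.39, 95% interval 0.55 to 2.19), the largest of the 10 in size, with an unadjusted p of 0.0023 and an adjusted p of 0.179 in edgeR's model, on 41 reads in cold mice and 20 in ctrl mice. Leaving out each mouse in turn gave 1.11 to 1.63, and none of these passed. The reads were spread over 5 transcripts, with 17, 16, 15 and 12 reads in all on Gk-201, Gk-208, Gk-202 and Gk-206, too few to follow any one of them.

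Genes of simple epithelia moved with the same groups. Of 11 genes listed as markers of the epididymal duct epithelium 9 had reads and 4 could be tested. All 4 rose in cold mice (Epcam, Cldn7, Krt8 and Krt18, adhesion, tight-junction and keratin genes not particular to the duct). Epcam, the most changed, had 89 reads in cold mice and 4 in ctrl mice (log2 fold change 4.65, edgeR adjusted p 0.000374). The list summed to 85.5, 160 and 116 CPM in cold mice 7, 12 and 16, against 22.4, 6.72 and 12.4 CPM in ctrl mice 5, 6 and 10. Within the cold group the mice ranked as they did for Gk, and within the ctrl group they did not. The duct's defining secretory genes Lcn9 and Spint4 had no read, and Lcn5, Lcn8, Rnase10 and Defb20 had at most 3 reads over a group. Adam7 had 9, 0 and 1 reads in cold mice 7, 12 and 16 and 1 in ctrl mice, so nearly all its reads were from cold mouse 7. Which epithelium the reads came from, and the part of epithelial cells in the Gk values, were not tested.

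**Figure D2:**
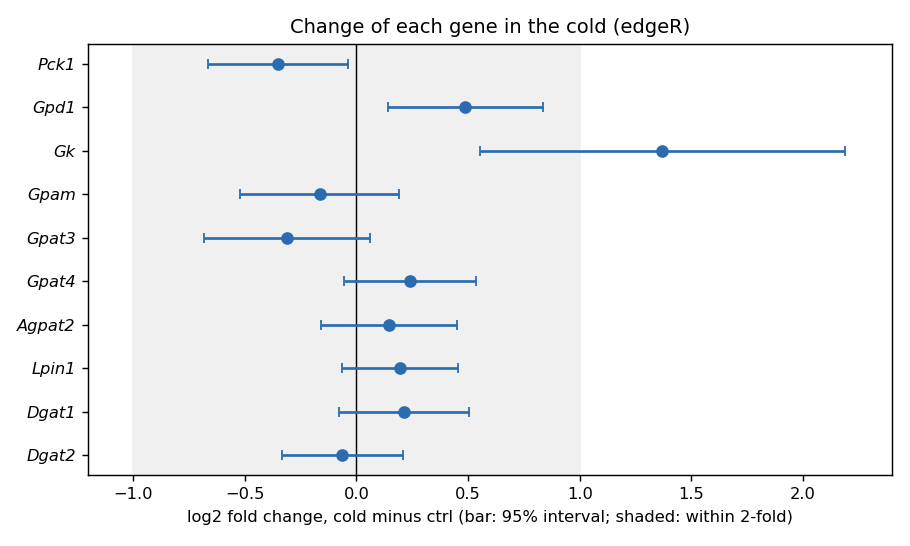
Log2 fold change of each gene, cold minus ctrl (horizontal axis), from edgeR's model, with bars for the 95% interval and shading over changes of less than 2-fold. The intervals of 9 genes lie inside the shading; that of Gk reaches 2.19, and those of Pck1, Gpd1 and Gk leave out 0.

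Glycerol 3-phosphate acyltransferases add the first chain: Gpam encodes the mitochondrial enzyme GPAT1, and Gpat3 and Gpat4 encode enzymes of the endoplasmic reticulum. Gpam had 164, 155 and 119 CPM in cold mice 7, 12 and 16, against 141, 152 and 207 CPM in ctrl mice 5, 6 and 10. Its groups overlapped, and the log2 fold change of -0.17 (95% interval -0.52 to 0.19, edgeR adjusted p 0.890) turned to 0.025 without ctrl mouse 10, the highest one. Nearly all of its reads were on Gpam-202, with 106, 176 and 89 reads in cold mice and 124, 195 and 219 reads in ctrl mice. Gpam-201, whose annotated start lies 27765 bases away and which encodes the same protein, had 29 reads over all 6 mice.

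For Gpat3, the isoform best known from adipocytes, cold mice 7, 12 and 16 had 123, 129 and 75.4 CPM, against 126, 157 and 133 CPM in ctrl mice 5, 6 and 10. Cold mouse 16 was the lowest of the 6, and cold mouse 12 lay just above the lowest ctrl mouse. Means were 109 ± 29.4 CPM in cold mice and 139 ± 16.2 CPM in ctrl mice (SD, n = 3 each), a log2 fold change of -0.31 (95% interval -0.68 to 0.06, edgeR adjusted p 0.702). Leaving out each mouse in turn gave -0.47 (without cold mouse 12) to -0.11 (without cold mouse 16). An antisense gene, 4930458D05Rik, overlaps it and had 43 reads, and whether strand was used in counting is unknown.

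Gpat4 had the most even values of the 3 acyltransferases, with 129.6, 129.2 and 125.2 CPM in cold mice 7, 12 and 16, against 119, 102 and 110 CPM in ctrl mice 5, 6 and 10. Every cold mouse was above every ctrl mouse, by a small margin. Means were 128 ± 2.43 CPM in cold mice and 111 ± 8.59 CPM in ctrl mice (SD, n = 3 each), and the log2 fold change was 0.24 (95% interval -0.05 to 0.53, edgeR adjusted p 0.715).

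The 3 forms of Gpat3 differ in their 5′ part and encode the same 438 residues. Their annotated 3′ ends nearly coincide, at base 100899102 for Gpat3-202 and 100899099 for Gpat3-201 and Gpat3-203. A read that stops short of the 5′ part may therefore not tell them apart, and how the counting treated such reads is not given. Gpat3-202 had 32, 57 and 28 reads in cold mice and 50, 97 and 56 reads in ctrl mice, and in CPM all 3 cold mice were below all ctrl mice. Gpat3-201 had 36, 46 and 12 reads in cold mice and 40, 68 and 55 reads in ctrl mice, and Gpat3-203 had 21, 51 and 19 reads in cold mice and 28, 45 and 40 reads in ctrl mice. Their log2 fold changes were -0.43, -0.43 and 0.02, with edgeR adjusted p of 0.750 or more for each. Leaving out each mouse in turn moved Gpat3-201 between -0.72 (without cold mouse 7) and -0.11 (without cold mouse 16), and Gpat3-202 between -0.54 (without ctrl mouse 10) and -0.23 (without ctrl mouse 6). Gpat3-203 took 23.6%, 33.1% and 32.2% of the gene's reads in cold mice 7, 12 and 16, against 23.7%, 21.4% and 26.5% in ctrl mice 5, 6 and 10, a difference of 5.76 percentage points with an exact permutation p of 0.3 (two-sided; 3 against 3 mice cannot give less than 0.1).

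Agpat2 encodes the acyltransferase that makes phosphatidic acid from lysophosphatidic acid, and its loss causes congenital generalized lipodystrophy in humans. It had 816.2, 816.0 and 704 CPM in cold mice 7, 12 and 16, against 616, 891 and 642 CPM in ctrl mice 5, 6 and 10. The groups overlapped, with ctrl mouse 6 the highest of all. The log2 fold change was 0.15 (95% interval -0.16 to 0.45, edgeR adjusted p 0.887), and ran from 0.038 without ctrl mouse 5 to 0.33 without ctrl mouse 6. Egfl7 overlaps the gene on the opposite strand and had 932 reads, so reads could be split between them in counting.

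Lpin1 encodes lipin-1, the phosphatidate phosphatase that makes diacylglycerol and whose loss causes the fatty liver dystrophy of the fld mouse. Its level was 296, 319.5 and 344 CPM in cold mice 7, 12 and 16, against 291, 290 and 272 CPM in ctrl mice 5, 6 and 10. All cold mice were above all ctrl mice, cold mouse 7 only just. Means were 320 ± 23.6 CPM in cold mice and 284 ± 11.0 CPM in ctrl mice (SD, n = 3 each), and the log2 fold change was 0.20 (95% interval -0.06 to 0.46, edgeR adjusted p 0.757).

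Dgat1 and Dgat2 encode unrelated enzymes that both add the last acyl chain; Dgat2 is linked to newly made fatty acids and Dgat1 to re-esterification of those released by lipolysis. Dgat1 had 227.5, 227.3 and 222 CPM in cold mice 7, 12 and 16, against 180, 234 and 178 CPM in ctrl mice 5, 6 and 10. The cold mice lay close together, below ctrl mouse 6 and above the other two, and the log2 fold change was 0.21 (95% interval -0.08 to 0.51, edgeR adjusted p 0.770). It ran from 0.14 without ctrl mouse 5 or 10 to 0.35 without ctrl mouse 6. Dgat2 had 2163, 2062 and 2270 CPM in cold mice 7, 12 and 16, against 2524, 2480 and 1916 CPM in ctrl mice 5, 6 and 10. Here the cold mice lay inside the span of the ctrl mice, and the log2 fold change was -0.06 (95% interval -0.33 to 0.21, edgeR adjusted p 0.957), with values from -0.18 without ctrl mouse 10 to -0.0074 without ctrl mouse 5.

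At the level of single transcripts the annotation lists 61 forms of the 10 genes. Reads were found on 48 of them, 13 had none, and 19 had at least 30 reads over the 6 mice, all of which were tested. By edgeR over the 12325 transcripts tested 0 of 19 passed, with adjusted p from 0.516 to 0.994, against a background of 0.381%. DESeq2 and limma-voom called 0 as well. At an unadjusted p under 0.05 there were 2 in edgeR's model (Gpd1-201 and Pck1-201), against 6.87% of all transcripts tested. The groups did not overlap for 3 of the 19 (Gpat3-202, Gpat4-201 and Lpin1-201), against 12.6% of all transcripts tested. Of the 19, 13 had a log2 fold change above 0 and 6 below.

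A change in how a gene's reads divide among its transcripts was tested with edgeR's diffSpliceDGE in the 6 members with 2 or more tested transcripts (Agpat2, Dgat1, Dgat2, Gpat3, Lpin1 and Pck1). None passed, with unadjusted Simes p of 0.667 to 0.991. The background was 0.0%, since 0 of 2624 genes passed, and 0.953% had an unadjusted p under 0.05. For 12 shares of a member's reads on a form or class of transcripts, the exact permutation p was 0.2 or more, and every share overlapped between groups.

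Lpin1 makes lipin-1 in a longer and a shorter protein form, known as β and α, that differ by 1 coding exon of 99 bases. Its sequence is shown because it accounts for the whole difference in length between the 924-residue protein of Lpin1-201, Lpin1-202 and Lpin1-205 and the 891-residue protein of Lpin1-204 and Lpin1-207, a stretch of 33 residues. It lies at chr12:16571164-16571262 on the minus strand of GRCm38 and is given 5′ to 3′ as in the transcript, from GENCODE M21.
Lpin1 alternative exon: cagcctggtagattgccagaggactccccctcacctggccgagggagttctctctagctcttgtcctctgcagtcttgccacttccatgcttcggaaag

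Most Lpin1 reads were on forms with this exon. Their share was 89.3%, 86.4% and 87.4% in cold mice 7, 12 and 16, against 86.1%, 88.7% and 84.7% in ctrl mice 5, 6 and 10. The groups interleaved, and the difference of 1.18 percentage points had an exact permutation p of 0.4. Over all mice 1596 of 1834 reads on these forms, or 87.0%, were on forms with the exon. The exon lies 4698 bases from the 3′ end of Lpin1-201, and the annotated 3′ ends of Lpin1-204 and Lpin1-207 lie 1371 and 1519 bases short of that end. A read that stops before the exon can therefore still be given to one form by its 3′ end. How the counting treated such reads is not given in the sources used here. The share of 87.0% is therefore not a direct measure of how often the exon is included.

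**Figure D3:**
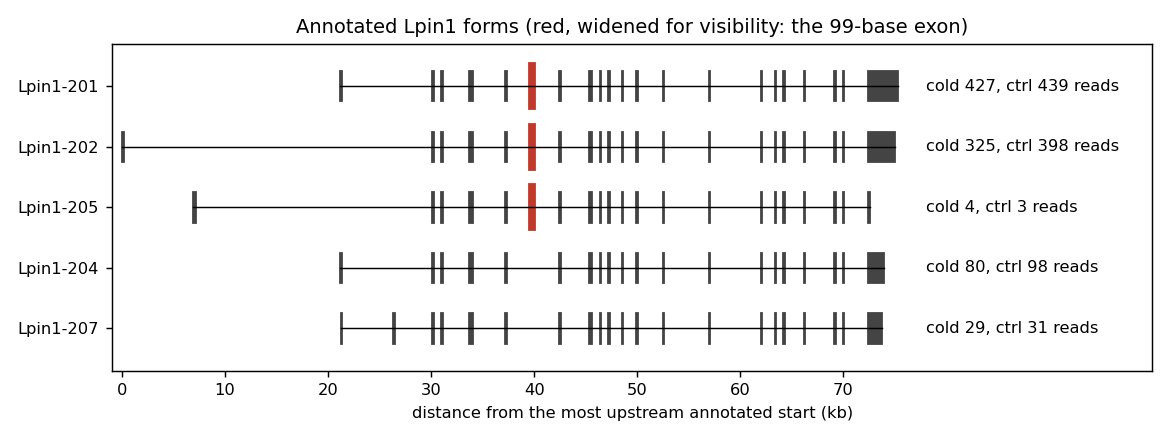
Exons of the 5 Lpin1 forms with the exon in question or its skip, drawn by distance from the most upstream annotated start (kb, horizontal axis), with the reads of each form in cold and ctrl mice at the right. The 99-base exon (red, drawn wider than to scale) is in the top 3 forms, which hold 87.0% of the reads.

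The most used Lpin1 forms differ in their first exon. A read that stops short of that exon does not show it. The annotated 3′ end of Lpin1-202 lies 285 bases short of that of Lpin1-201, and how the counting treated such reads is not given. The reads of each form are therefore not a direct count of first exons. Lpin1-201 had 102, 191 and 134 reads in cold mice 7, 12 and 16 and 125, 186 and 128 reads in ctrl mice 5, 6 and 10; in CPM all cold mice were above all ctrl mice. Its log2 fold change was 0.32 (SE 0.16, edgeR adjusted p 0.742). Lpin1-202, which starts 21196 bases upstream, had 89, 136 and 100 reads in cold mice and 110, 156 and 132 reads in ctrl mice, a log2 fold change of 0.08 (edgeR adjusted p 0.961). Lpin1-202 took 41.4%, 35.7% and 37.2% of the gene's reads in cold mice, against 40.3%, 40.1% and 42.9% in ctrl mice, with overlap and an exact permutation p of 0.3. The short forms had fewer reads: Lpin1-204 had 18, 39 and 23 in cold mice and 32, 35 and 31 in ctrl mice, and Lpin1-207 had 5, 13 and 11 in cold mice and 6, 9 and 16 in ctrl mice.

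Pck1 had a large share of reads on a form that is not annotated as coding. Pck1-201 is the coding form, and Pck1-202 keeps the last intron, which is shown because it is the stretch that the form keeps. The intron lies at chr2:173158089-173158191 on the plus strand of GRCm38, is 103 bases long and is given 5′ to 3′ with its first and last 2 bases in capitals, the GT and AG of a regular intron. It interrupts the coding sequence, and its length is not a multiple of 3.
Pck1 last intron: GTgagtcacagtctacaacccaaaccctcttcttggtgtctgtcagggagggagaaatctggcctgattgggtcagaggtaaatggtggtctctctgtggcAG

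Pck1-201 had 551, 708 and 378 reads in cold mice 7, 12 and 16 and 788, 897 and 1067 reads in ctrl mice 5, 6 and 10. Its log2 fold change was -0.39 (SE 0.17, edgeR adjusted p 0.670), and ran from -0.59 without cold mouse 7 to -0.25 without cold mouse 16. Pck1-202 had 230, 329 and 268 reads in cold mice and 382, 385 and 512 reads in ctrl mice, a log2 fold change of -0.27 (edgeR adjusted p 0.838) that ran from -0.44 without ctrl mouse 6 to -0.12 without ctrl mouse 10. The share of Pck1 reads on Pck1-202 was 29.3%, 31.6% and 41.3% in cold mice, against 32.6%, 29.8% and 32.2% in ctrl mice (exact permutation p 0.9). Cold mouse 16 stood alone: its 95% Wilson interval of 37.6% to 45.1% lay above the highest interval bound of the other 5 mice, 35.3%. Its 2 files, which come from the same mouse and are not replicates, gave 42.1% and 40.3%, against 28.9% to 33.6% in the files of the other mice. The difference between groups was 2.54 percentage points with that mouse and -1.07 without it.

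The same mouse stood apart for Agpat2. Agpat2-202 leaves out the last part of the first exon, shown here because it begins with GT and so marks where the shorter exon ends. It lies at chr2:26604029-26604123 on the minus strand of GRCm38, is 95 bases long, follows 87 coding bases, and is given 5′ to 3′ with the GT in capitals.
Agpat2 first-exon segment: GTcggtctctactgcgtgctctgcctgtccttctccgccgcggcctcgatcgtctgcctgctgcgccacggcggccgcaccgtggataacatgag

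The length of this segment is not a multiple of 3, and the annotation gives Agpat2-202 no coding sequence. It had 102, 175 and 175 reads in cold mice 7, 12 and 16 and 110, 205 and 143 reads in ctrl mice 5, 6 and 10, while the coding form Agpat2-201 had 482, 780 and 361 reads in cold mice and 456, 971 and 564 reads in ctrl mice. Agpat2-202 took 17.2%, 18.0% and 31.8% of the gene's reads in cold mice, against 19.0%, 17.2% and 19.7% in ctrl mice (exact permutation p 0.8). Cold mouse 16 was again above the rest, with a Wilson interval of 28.0% to 35.8% against a highest bound of 22.7% in the other 5 mice, and its 2 files gave 32.4% and 30.8% against 16.6% to 21.7%. The difference between groups was 3.70 percentage points with that mouse and -1.02 without it. Wilson intervals cover counting error only, and the 2 files of a mouse are not replicates. Beside these shares stands that library's higher share of intron-retaining reads over all genes, and its part in them was not tested.

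**Figure D4:**
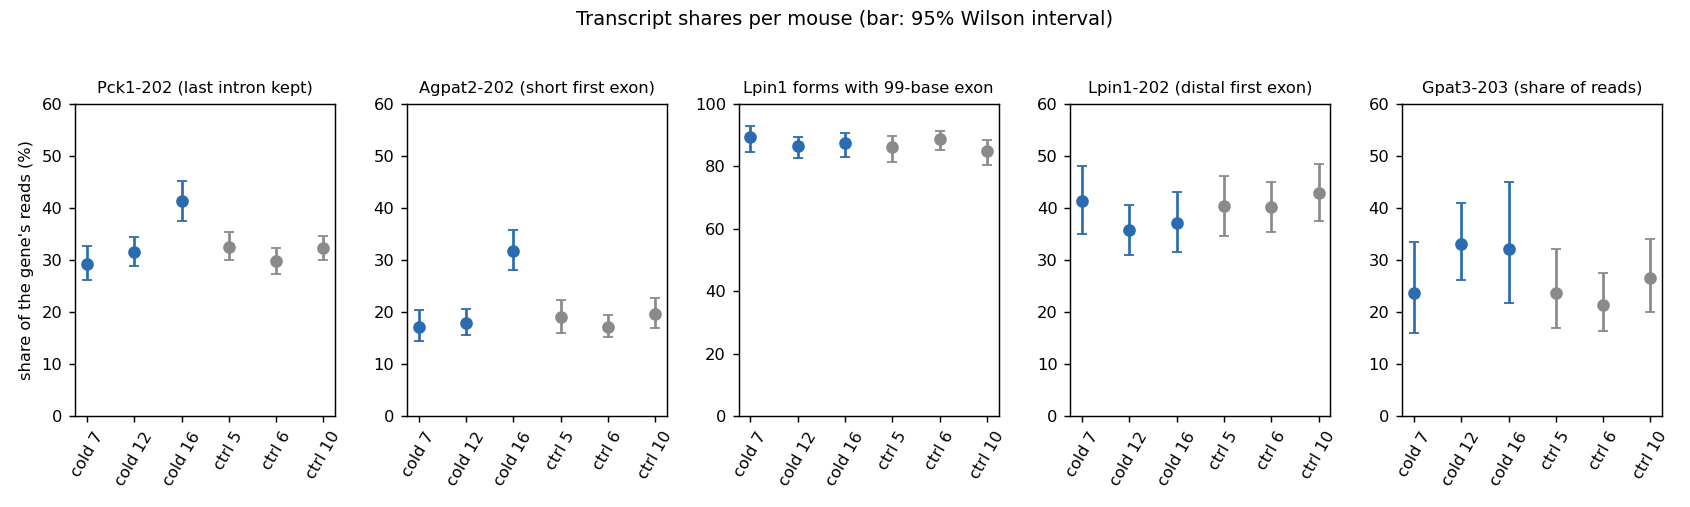
Share of a gene's reads on the named form in each mouse (vertical axis, %), with the 95% Wilson interval as bars, cold mice in blue and ctrl mice in grey. Cold mouse 16 stands above the other 5 mice for Pck1-202 (41.3%) and Agpat2-202 (31.8%), and the 3 other panels show no such gap.

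The coding forms of the DGAT genes held most of their reads. Dgat2-201 had 1560, 2447 and 1759 reads in cold mice 7, 12 and 16 and 2357, 3297 and 2162 reads in ctrl mice 5, 6 and 10, while 0.574%, 0.488% and 1.01% of Dgat2 reads in cold mice and 0.422%, 0.692% and 0.415% in ctrl mice were on forms not annotated as coding. For Dgat1, 8.48%, 12.2% and 17.2% of the reads in cold mice were on such forms, against 13.6%, 10.2% and 16.3% in ctrl mice. Most of these were on Dgat1-205, an intron-retaining form with 7, 27 and 24 reads in cold mice and 14, 24 and 19 reads in ctrl mice. Both genes overlapped between groups in this share (exact permutation p 0.5 for Dgat2 and 0.8 for Dgat1).

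Around these 10 genes, 4 lists of other pathway genes were read from the same model, and none of their tested genes passed in edgeR's model, nor in DESeq2 or limma-voom. At an unadjusted p under 0.05 in edgeR there were 1, 1, 2 and 0 genes in the lists, in the order given here. The share over all genes tested was 8.43%, and of all genes tested 4965 had a log2 fold change above 0 and 4807 below. On the supply of glycerol 3-phosphate (glycolytic, pyruvate and shuttle enzymes and the glycerol channel), 16 of 17 genes were tested, 10 above and 6 below 0, with a median log2 fold change of 0.13. The 2 with the smallest p were Aqp7, the channel through which adipocytes release glycerol, and Eno1, a glycolytic enolase. Aqp7 had 240, 302 and 215 CPM in cold mice 7, 12 and 16, against 314, 310 and 379 CPM in ctrl mice 5, 6 and 10, so all cold mice were below all ctrl mice, and its log2 fold change was -0.37 (edgeR adjusted p 0.451). Eno1 overlapped between groups at a log2 fold change of 0.31 (edgeR adjusted p 0.612), which ran from 0.17 without cold mouse 12 to 0.48 without cold mouse 16.

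Of the other acylation and phosphatase isoforms and their partners 13 of 19 were tested, with a median of 0.04, and Gpat2 had no read. Fitm2, which helps to form lipid droplets, had 120, 126 and 125 CPM in cold mice, against 84.3, 94.8 and 114 CPM in ctrl mice. Its cold mice were above all ctrl mice, at a log2 fold change of 0.36 (edgeR adjusted p 0.529). Lclat1, a lysocardiolipin acyltransferase, had a log2 fold change of 0.59 with overlap (edgeR adjusted p 0.661).

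All 17 genes of the phospholipid branch, which draws on phosphatidic acid and diacylglycerol, were tested, with a median of 0.10. Cds1, which turns phosphatidic acid into CDP-diacylglycerol, had 9.65, 20.1 and 26.8 CPM in cold mice, against 8.53, 10.5 and 4.41 CPM in ctrl mice. Cold mouse 7 lay among the ctrl mice and the other two above them, and the log2 fold change of 1.29 (edgeR adjusted p 0.237) passed without cold mouse 7 (1.53, adjusted p 0.0283). Pgs1, which makes the precursor of cardiolipin, had a log2 fold change of 0.79 (edgeR adjusted p 0.425), which ran from 0.52 without cold mouse 12 to 1.15 without ctrl mouse 6. The epithelial marker sum given beside Gk was likewise lower in cold mouse 7 than in the other cold mice. Between cold mice 12 and 16 it went the other way from Cds1 (160 and 116 CPM). Among ctrl mice it was lowest in mouse 6 (6.72 CPM), where Cds1 was highest. The part of epithelial cells in Cds1 was not tested.

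Of 15 transcriptional regulators of the pathway 13 were tested, with a median of 0.06. Mlxipl, the gene of the glucose-responsive factor ChREBP, had 73.1, 82.2 and 105 CPM in cold mice, against 80.0, 70.2 and 58.2 CPM in ctrl mice, with overlap (log2 fold change 0.35, edgeR adjusted p 0.639; 0.21 without cold mouse 16). Creb1, the gene of the cAMP-responsive factor that acts on Pck1, had 26.2, 26.0 and 11.5 CPM in cold mice, against 25.6, 26.9 and 30.01 CPM in ctrl mice. Its log2 fold change of -0.32 (edgeR adjusted p 0.849) rested on cold mouse 16 and was -0.049 without it.

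**Figure D5:**
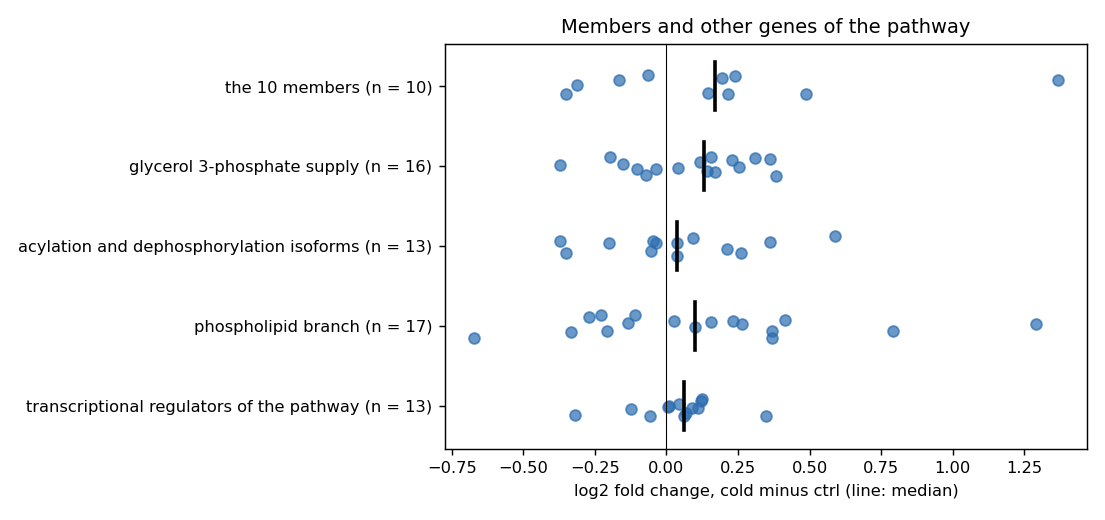
Log2 fold change, cold minus ctrl (horizontal axis), of the 10 members and of the tested genes of 4 other pathway lists, with 1 point per gene and a line at the median. The medians lie between 0.04 and 0.17, and no point passed the threshold.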

How the data were processed

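What the authors deposited are whole-number counts of reads on each annotated transcript, in 2 files per mouse (X1 and X2) and 12 in all. Per the labels' protocols, libraries were made from 100 ng of poly-A RNA. Per the submitters' processing notes, minimap2 aligned the reads to GRCm38; which counting tool was used, and whether by strand, is not given in the sources used here. The 2 files of a mouse differed by about the sampling noise (chi-square per degree of freedom 1.02 to 1.06) and were summed as 1 sample. Of 61729 transcript identifiers 61538 matched GENCODE M21, and counts were summed to genes. CPM of genes is per read assigned to genes, and that of transcripts per read in all.

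Groups follow the labels, and replicates are mice. Genes, transcripts and transcript usage (diffSpliceDGE) were tested with edgeR 4.0.16 (quasi-likelihood, TMM, filterByExpr with a minimum count of 10, R 4.3.3), adjusted over all features tested, with a threshold of 0.05. The code was tested on simulated data. Shares were compared by exact two-sided permutation over mice (scipy 1.17.1). Alternatives were DESeq2 1.42.0, limma-voom 3.58.1, RLE size factors, no filter, 10 reads in 3 libraries, X1 or X2 files alone, and each mouse left out. Named are all 10 members, their transcripts with at least 30 reads, and from each of 4 pathway lists every gene past the threshold, or else the 2 with the smallest p. The members and lists were chosen with earlier results of these data known. Lengths per kb are means over a gene's transcripts weighted by reads.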

Additional observations from a re-analysis of the deposited data

How the results depend on the processing

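Under 13 alternatives chosen in advance, the count of member genes past the threshold was 0, except for 1 (Gpd1) without cold mouse 7, so it ran from 0 to 1 when each mouse was left out. The phospholipid list had 0 past the threshold, and 1 (Cds1) with no filter on low counts and 1 without cold mouse 7, a range of 0 to 1 over the mice left out. Member transcripts, usage and the 3 other lists stayed at 0 wherever they were run, while all genes called ran from 35 to 371. Gk could not be tested with X1 or X2 files alone, and usage was not run under DESeq2 or limma-voom. No alternative with coding transcripts alone was run. The Lpin1 forms with reads are all annotated as coding.

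Small log2 fold changes turned sign: Dgat1-205 to -0.11 with X1 files, Gpat3-203 to -0.14 with X2 files and -0.049 with no filter, Lpin1-202 to -0.013 with X2 files and -0.0018 with no filter, and Lpin1-204 to -0.027 with no filter. With each mouse left out, Agpat2-201 ran from -0.033 to 0.30, Dgat2-206 from -0.21 to 0.41, Gpam from -0.28 to 0.025, Gpat3-203 from -0.29 to 0.19 and Lpin1-204 from -0.061 to 0.14. Share differences in percentage points turned to 1.10 for non-coding Dgat1 (X2 files), 0.235 for Lpin1-202 (X1 files) and 0.644 for Gpat3-202 (X2 files). With each mouse left out they ran from -1.02 to 6.24 for Agpat2-202, -1.37 to 6.58 for non-coding Agpat2, -3.06 to 1.32 for non-coding Dgat1, -9.13 to 0.93 for Gpat3-201, -5.40 to 0.41 for Gpat3-202, -1.07 to 4.91 for Pck1-202 and -1.21 to 4.80 for non-coding Pck1. The cause of these turns was not tested.

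No paired analysis was possible because cold and ctrl mice share no replicate number. With 3 mice a group, exact permutation of a share cannot go below 0.1, and for Gk the interval rests on 41 reads in cold mice and 20 in ctrl mice.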
